A study of Mus musculus with 9 samples.

Results

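Inhibitor of apoptosis proteins and the adaptors of death-receptor complexes were examined as a group of 10 genes: *Birc2*, *Birc3*, *Xiap*, *Birc6*, *Cflar*, *Traf1*, *Traf2*, *Casp8*, *Fadd* and *Ripk1*. They were chosen by name with earlier results of these data known, so their counts and medians beside those of all tested genes are descriptive. Of these 10, 9 had probe sets annotated to 1 gene, out of 18193 genes so represented on the array, and 8 reached the level needed for a test, out of 9431 genes tested. *Ripk1*, the kinase scaffold of these complexes, is not analysed here, and *Traf1* lay at the low end of the scale on all 9 arrays.

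The cells were m-ICcl2, a mouse line from fetal small intestinal epithelium of the C57BL/6 strain, and every sample carried the SV40 large T antigen transgene, controls included. The labels name no promoter for it. Biotin-labelled total RNA was hybridised to Affymetrix arrays, with 3 arrays per condition, labelled as biological replicates. Cells were unstimulated, or stimulated with lipopolysaccharide (LPS, bacterial endotoxin) at 100 ng/mL for 6 h, or stimulated in that way for 6 h and then kept for 90 h without LPS, 96 h after its first addition. The last condition is called tolerant, as in the series design. The labels give no culture time for the unstimulated cells, so in the tolerant state the earlier LPS and any longer culture cannot be told apart. The labels do not say whether replicates came from separate cultures. The p-values set each difference against the spread between these samples, and would be too small if replicates shared a culture.

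When tumour necrosis factor or a related ligand binds its receptor, TRAF2 brings the ubiquitin ligases cIAP1 and cIAP2, encoded by *Birc2* and *Birc3*, to the receptor, and the ubiquitin chains they place on RIPK1 feed NF-kappa-B activation. Where this step fails, FADD gathers caspase-8 and starts apoptosis, and c-FLIP, the *Cflar* product, binds beside caspase-8 and limits its activation. XIAP acts later, on the caspases that carry out cell death. In intestinal epithelium this balance sets how readily cells are shed or die during inflammation.

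*Birc2* and *Birc3* lie next to each other on chromosome 9, with 0 annotated genes between them, and had the most alike profiles over the 9 arrays among the 8 tested genes. Their promoters are shown because both genes rose in tolerant cells. The windows are from RefSeq (GRCm38.p6), run from 250 bases before to 50 bases after the gene's start and are on the minus strand. Capitals mark motif matches.
Birc2, chr9:7837008-7837307: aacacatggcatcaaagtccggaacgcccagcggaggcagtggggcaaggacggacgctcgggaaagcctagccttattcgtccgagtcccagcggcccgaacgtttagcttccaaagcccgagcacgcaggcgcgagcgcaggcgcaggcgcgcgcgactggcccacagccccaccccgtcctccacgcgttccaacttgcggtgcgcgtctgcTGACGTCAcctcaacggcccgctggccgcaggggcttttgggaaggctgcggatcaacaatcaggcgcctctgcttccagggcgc
Birc3, chr9:7873121-7873420: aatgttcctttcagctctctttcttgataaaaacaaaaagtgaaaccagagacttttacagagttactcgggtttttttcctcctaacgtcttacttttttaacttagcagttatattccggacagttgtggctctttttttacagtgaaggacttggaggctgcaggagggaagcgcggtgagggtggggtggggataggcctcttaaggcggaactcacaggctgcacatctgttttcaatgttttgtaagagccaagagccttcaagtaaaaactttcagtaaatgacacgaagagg
The motifs searched on both strands were the kappa-B consensus, the AP-1 site TGACTCA and the cyclic-AMP response element TGACGTCA, and no match overlapped another motif. The *Birc2* window holds TGACGTCA, starting 35 bases before the gene's start, a motif found in 1.79% of 32851 windows of this length. The *Birc3* window and a second *Birc2* window, not shown, hold none of these motifs. The GC content was 67% in the *Birc2* window and 43% in the *Birc3* window. Over 14 windows of the 10 genes, the only other match was the kappa-B consensus in 1 of 3 *Xiap* windows, 22 bases after the start, a consensus found in 8.46% of all windows. AP-1 sites, found in 5.2% of all windows, were in none of the 14.

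Values are deposited intensities turned into log2. Each gene is read from its brightest probe set by mean level, and was tested with limma where that probe set reached log2 4 on at least 3 of 9 arrays. A gene is called where its Benjamini-Hochberg adjusted p over all tested genes is below 0.05. The 8 tested genes lay above log2 4 on all 9 arrays, so none passed through 1 condition alone. Replicate 1 stood apart from replicates 2 and 3 in every condition on the second principal component (30.9% of the variance), with a log2 difference between the 3' and 5' probe sets of beta-actin of 0.40 to 0.72 against 1.02 to 1.38. Where a call of a member or of a gene in the pathway lists below changes, results are also given with a block for replicate number. Some are also given from replicates 2 and 3 alone. Of 9 epithelial markers, 6 were tested, with *Krt8* between 12.72 and 13.51, while *Cdh1*, *Krt19* and *Cldn7* lay below log2 4 on all arrays. *Epcam* lay below log2 4 on all unstimulated and 6 h arrays and averaged 5.64 in tolerant cells. There *Epcam*, *Cdh17* and *Krt18* were called higher than in unstimulated cells. *Epcam* reached the level minimum only through its tolerant arrays, so its call is no support for a rise. Of 9 macrophage and leukocyte markers 3 were tested, and they moved in opposite directions. *Cd68* rose 17.8-fold, with means of 9.67 in tolerant and 5.52 in unstimulated cells (limma adjusted p = 5.83e-06), and was 23.7-fold higher than at 6 h. *Csf1r* fell, with means of 8.84 in tolerant and 10.79 in unstimulated cells (limma adjusted p = 0.0232), and *Spi1* fell to below log2 4 on all tolerant arrays, against a mean of 4.95 in unstimulated cells (limma adjusted p = 0.0181). *Spi1* reached the level minimum only with its unstimulated arrays, so its call has a like limit. *Ptprc*, *Adgre1*, *Itgam*, *Lyz2*, *Cd3e* and *Cd79a* lay below log2 4 on all arrays. The summed linear intensity of the 9 leukocyte markers, which adds the higher *Cd68* and the lower *Csf1r* of tolerant cells, ran from 1140 to 1473 on the tolerant arrays and from 1235 to 2460 on the unstimulated ones, and that of the 9 epithelial markers from 15372 to 21714 and from 13004 to 18145 on the same arrays. Of 8 mesenchymal markers only *Vim*, and of 4 endothelial markers none, reached the level minimum. The part of these markers in the results below was not tested.

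At 6 h of LPS none of the 8 genes was called by limma, although 5 had an unadjusted p below 0.05, as had 22.9% of all tested genes. The array values are bulk measures, in which fewer cells of a type and less RNA per cell cannot be told apart. *Birc3*, *Xiap*, *Birc2* and *Cflar* were higher and *Fadd* was lower than in unstimulated cells without overlap of their arrays, a pattern that 26.1% of tested genes showed (12.9% higher, 13.2% lower). Among all 9431 genes limma called 6 at this time, 0.0636%, all higher, and 4 of them, *Cxcl5*, *Cxcl2*, *Cxcl1* and *Nfkbiz*, are among 6 known LPS-responsive genes listed as a check. With the replicate block the same 5 genes passed, 4 higher and 1 lower, against 24.0% of all tested genes (11.6% higher, 12.5% lower). The median change of the 8 genes was 0.60 log2, against -0.11 over all tested genes.

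*Birc3*, the cIAP2 gene and a known NF-kappa-B target, read 6.58, 6.21 and 6.66 on the unstimulated arrays, 7.25, 7.94 and 8.05 at 6 h, and 8.31, 8.24 and 8.69 in tolerant cells, on the log2 scale for replicates 1, 2 and 3. The 3 conditions did not overlap, a pattern whose share over all tested genes is not given here. At 6 h it was 2.41-fold above unstimulated cells, by 1.27 log2 (SE 0.25, 95% interval 0.70 to 1.83), and higher in 3 of 3 same-numbered pairs, as follows from arrays without overlap. This change did not pass (limma adjusted p = 0.115) and passed with the replicate block (adjusted p = 0.0297). Only 0.732% of tested genes had a larger log2 change at 6 h. The other probe set of *Birc3* stayed between 2.71 and 2.75 on all arrays, below the level minimum.

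*Birc2*, the cIAP1 gene, read 8.02, 8.19 and 8.54 on the unstimulated arrays, 9.0, 9.22 and 8.98 at 6 h, and 9.83, 9.92 and 10.24 in tolerant cells. Here too the arrays of the 3 conditions were fully separate, with the same limit as for *Birc3*. At 6 h it was 1.76-fold above unstimulated cells, by 0.81 log2 (SE 0.19; limma adjusted p = 0.115, or 0.0319 with the replicate block). Its single probe set is the whole evidence for this gene. cIAP1 and cIAP2 are close relatives, and the probe sequences, which would show whether the probes tell them apart, were not used here.

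*Xiap*, the gene of the inhibitor that binds caspases directly, read 7.96, 7.77 and 8.37 on the unstimulated arrays, 9.45, 9.61 and 8.38 at 6 h, and 9.02, 9.24 and 9.06 in tolerant cells. At 6 h replicates 1 and 2 stood above every other array, while replicate 3 lay level with the highest unstimulated array, its same-numbered partner. Its change at 6 h was 1.11 log2 (SE 0.31; limma adjusted p = 0.120, or 0.0398 with the replicate block), and without 6 h LPS replicate 3 it was 1.49 log2 (adjusted p = 0.0207). From replicates 2 and 3 only, *Xiap* was not called in any comparison.

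*Cflar* read 6.79, 6.52 and 6.31 on the unstimulated arrays, 7.31, 7.72 and 6.95 at 6 h, and 7.89, 7.76 and 7.55 in tolerant cells. Both LPS conditions lay above the unstimulated arrays, and 6 h overlapped with the tolerant state. The change at 6 h was 0.79 log2 (SE 0.23; limma adjusted p = 0.121, or 0.0319 with the replicate block). Without 6 h LPS replicate 3, *Birc3* (adjusted p = 0.0472), *Cflar* (0.0413) and *Xiap* were called at 6 h, and limma called 696 genes in all.

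*Fadd*, the adaptor that links death receptors to caspase-8, read 6.59, 6.89 and 6.68 on the unstimulated arrays, 6.23, 6.22 and 6.24 at 6 h, and 5.96, 5.84 and 5.88 in tolerant cells. Each condition lay wholly below the one before it, and the share of all tested genes with such a pattern is not given here. At 6 h it differed by -0.49 log2 (SE 0.14, 95% interval -0.81 to -0.17), which did not pass (limma adjusted p = 0.122) and passed with the replicate block (adjusted p = 0.0371). It was the single one of the 8 genes whose arrays lay below the unstimulated ones without overlap.

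*Casp8*, *Birc6* and *Traf2* overlapped with unstimulated cells at 6 h. *Casp8*, the initiator protease, read 8.96, 9.27 and 9.05 on the unstimulated arrays, 9.24, 9.30 and 8.98 at 6 h, and 9.94, 9.94 and 9.66 in tolerant cells. Its difference at 6 h was 0.08 log2 with a 95% interval of -0.30 to 0.46 (limma adjusted p = 0.784), so a change of more than 0.46 log2 upward lies outside that interval. *Birc6*, a giant ubiquitin-conjugating inhibitor of apoptosis protein, differed by 0.41 log2 at 6 h (interval -0.27 to 1.09). *Traf2*, the adaptor that carries the cIAPs, differed by -0.15 log2 (interval -0.70 to 0.40).

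**Figure D1:**
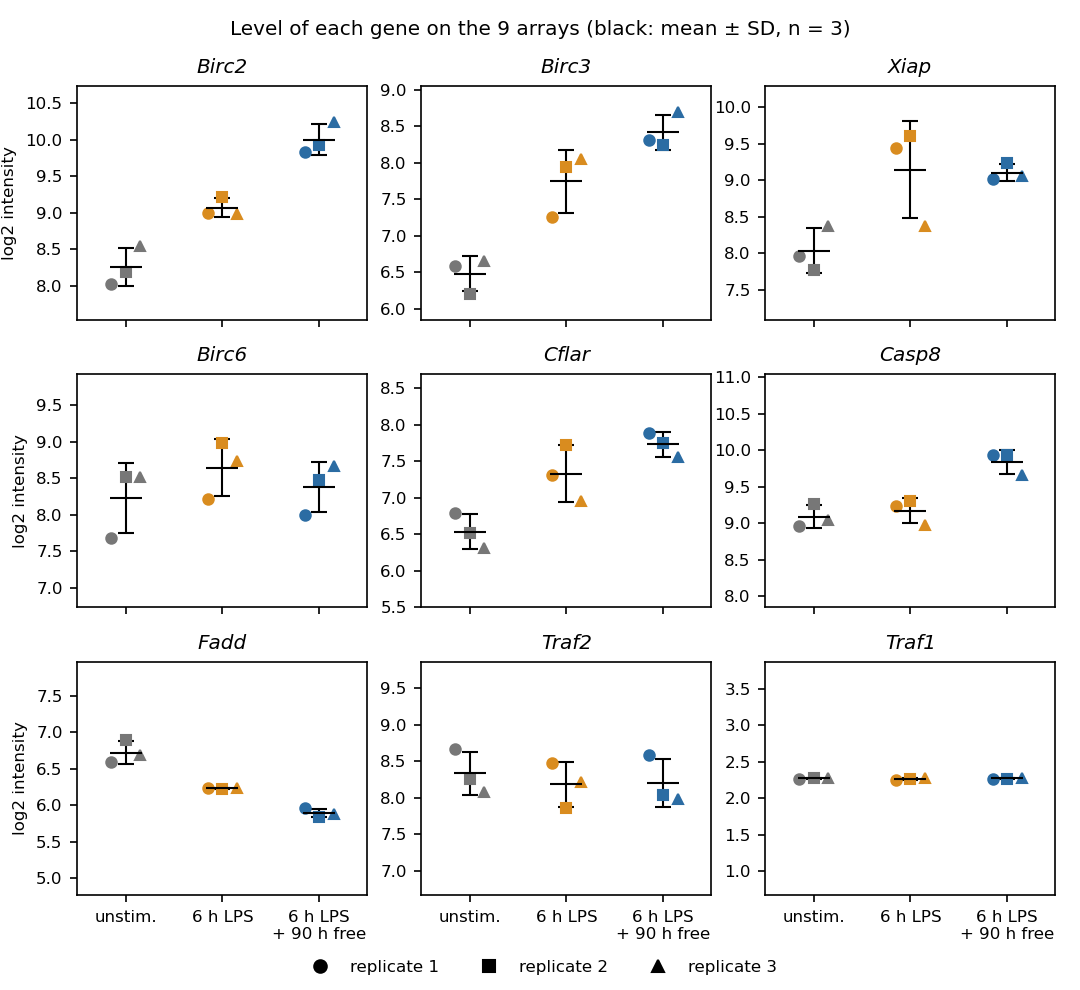
Log2 intensity (vertical axis, 3.2 log2 units high in every panel) of the main probe set of 9 genes in the 3 conditions (horizontal axis), with replicates 1, 2 and 3 as circle, square and triangle, and mean ± SD in black. *Birc2* and *Birc3* stand higher at 6 h and higher again in tolerant cells, *Fadd* stands lower at each step, *Xiap* has 1 low array at 6 h, and *Traf1* stays near 2.27 throughout.

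In tolerant cells 6 of the 8 genes were called against unstimulated cells, 5 higher and 1 lower, where 26.2% of all tested genes were called (14.0% higher, 12.2% lower). *Birc3* rose 3.82-fold and *Birc2* 3.36-fold, *Cflar* rose 2.29-fold, *Xiap* 2.10-fold and *Casp8* 1.68-fold, whereas *Fadd* fell 1.77-fold. *Birc6* and *Traf2* did not pass. The median change of the 8 was 0.91 log2, against -0.07 over all tested genes.

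*Birc3* averaged 8.42 ± 0.24 in tolerant and 6.48 ± 0.24 in unstimulated cells (log2, SD, n = 3 each), a rise of 1.93 log2 (SE 0.25; limma adjusted p = 0.00105). *Birc2* averaged 9.999 ± 0.21 in tolerant and 8.25 ± 0.27 in unstimulated cells, a rise of 1.75 log2 (SE 0.19; limma adjusted p = 0.000504). Of all tested genes, 1.70% had a larger log2 change than *Birc3* and 2.38% a larger one than *Birc2*. Both calls held with every array left out in turn, with changes of 1.80 to 2.02 log2 for *Birc3* and 1.63 to 1.89 log2 for *Birc2*.

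*Cflar* averaged 7.73 ± 0.17 in tolerant and 6.54 ± 0.24 in unstimulated cells, a rise of 1.19 log2 (SE 0.23; limma adjusted p = 0.00591). *Casp8*, its binding partner and near neighbour on chromosome 1, averaged 9.84 ± 0.16 in tolerant and 9.09 ± 0.16 in unstimulated cells, a rise of 0.75 log2 (SE 0.17; limma adjusted p = 0.0117). The *Casp8* call was lost without tolerant replicate 2 (adjusted p = 0.0549). *Cflar* and *Casp8* were both higher without overlap of the arrays, from which 3 of 3 higher same-numbered pairs follow. The share of all tested genes without overlap in this comparison is not given here, so the pattern adds no support to the calls. That share was 26.1% at 6 h against unstimulated cells and 31.3% in tolerant cells against 6 h.

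*Xiap* averaged 9.11 ± 0.12 in tolerant and 8.04 ± 0.31 in unstimulated cells, a rise of 1.07 log2 (SE 0.31; limma adjusted p = 0.0351). This was the least firm of the 6 calls: it was lost from replicates 2 and 3 only (adjusted p = 0.0831), when the gene was taken as the mean of its probe sets (adjusted p = 0.0921), without a level filter (adjusted p = 0.103), and without unstimulated replicate 1 or 2 or any 1 tolerant replicate (adjusted p of 0.0638 to 0.119).

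*Fadd* averaged 5.89 ± 0.06 in tolerant and 6.72 ± 0.15 in unstimulated cells and fell by 0.83 log2 (SE 0.14; limma adjusted p = 0.00386). It was lower in 3 of 3 same-numbered pairs, as follows from arrays without overlap, with the same limit as for *Cflar* and *Casp8*. Its call held with every array left out in turn, with changes of -0.89 to -0.74 log2. *Birc6* differed by 0.14 log2 (interval -0.54 to 0.82) and *Traf2* by -0.13 log2 (interval -0.69 to 0.42), so neither a rise nor a fall within those bounds can be told from no change. *Birc6* read 7.68, 8.51 and 8.51 on the unstimulated arrays, and *Traf2* read 8.67, 8.26 and 8.09 there, so their replicate 1 lay apart from replicates 2 and 3, as in the arrays at large. *Birc6* moved to -0.13 log2 and *Traf2* to 0.03 log2 without unstimulated replicate 1.

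**Figure D2:**
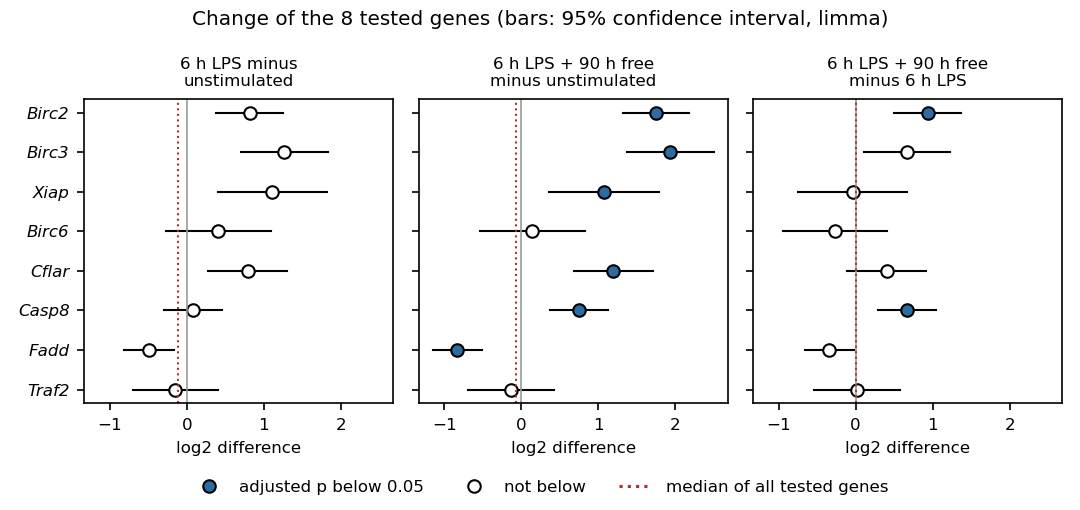
Log2 difference (horizontal axis) of the 8 tested genes in 3 comparisons, with 95% confidence intervals from limma. Filled points have an adjusted p below 0.05, and the dotted line is the median over all tested genes. No point is filled at 6 h, 6 are filled in the middle panel and 2 in the right one, where tolerant cells are set against 6 h of LPS.

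Between tolerant cells and 6 h of LPS, 2 of the 8 genes were called, both higher, where 13.1% of all tested genes were called (7.10% higher, 6.02% lower). With the replicate block *Birc3* was the third, against 31.7% of all tested genes (16.0% higher, 15.7% lower). This comparison asks which changes came after LPS was withdrawn. Tolerant cells were taken 96 h after LPS was first added, against 6 h, so LPS removal and longer culture cannot be told apart. The comparison shares arrays with both others, so the 3 sets of values are not independent. *Birc2* averaged 9.999 ± 0.21 in tolerant cells and 9.07 ± 0.13 at 6 h, a rise of 0.93 log2 or 1.91-fold (SE 0.19; limma adjusted p = 0.0133). *Casp8* averaged 9.84 ± 0.16 in tolerant cells and 9.18 ± 0.17 at 6 h, a rise of 0.67 log2 or 1.59-fold (SE 0.17; limma adjusted p = 0.0308). Both were higher in 3 of 3 same-numbered pairs, as follows from arrays without overlap. *Casp8* rose after the 6 h point, where its difference from unstimulated cells had been 0.08 log2.

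*Birc3* averaged 8.42 ± 0.24 in tolerant cells and 7.75 ± 0.43 at 6 h, a difference of 0.67 log2 (SE 0.25), without overlap of the arrays (limma adjusted p = 0.120, or 0.0327 with the replicate block). The arrays of *Birc2*, *Birc3* and *Casp8* were higher and those of *Fadd* lower without overlap, as in 31.3% of tested genes (15.9% higher, 15.4% lower). *Cflar* differed by 0.40 log2 (interval -0.11 to 0.92) and *Fadd* by -0.34 log2 (interval -0.66 to -0.02; limma adjusted p = 0.165). *Xiap* differed by -0.04 log2, with an interval of -0.75 to 0.67. *Birc6* differed by -0.27 log2 (interval -0.95 to 0.41) and *Traf2* by 0.02 log2 (interval -0.54 to 0.57). The median change of the 8 genes was 0.21 log2, against 0.01 over all tested genes.

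The calls in this last comparison rested on single arrays more than those against unstimulated cells. The count was 1, *Birc2*, without unstimulated replicate 3, without 6 h LPS replicate 2 or 3, and without tolerant replicate 1 or 2, and it was 0 without tolerant replicate 3. *Casp8* had adjusted p of 0.0509 to 0.119 in those fits, and 0.0659 when only the 6 arrays compared were fitted. *Birc2* had an adjusted p of 0.0590 without tolerant replicate 3.

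The probe sets of a gene did not all move alike. Of 27 probe sets for the 9 genes, 14 reached the level minimum. Of the other 13, 11 lay below log2 4 on all 9 arrays, and 1 each of *Xiap* (1421394_a_at) and *Cflar* (1453482_at) reached log2 4 on 2 arrays and was not tested. The *Cflar* one averaged 4.16 ± 0.48 in tolerant and 3.72 ± 0.05 in unstimulated cells. Its lowest tolerant array (3.757) and highest unstimulated array (3.748) both lay under log2 4, where values carry no order. For *Xiap*, probe set 1456088_at changed like the main one, 1437533_at, by 1.33 log2 at 6 h and 1.20 log2 in tolerant cells against unstimulated ones. It read 8.06, 8.26 and 6.26 at 6 h, so its replicate 3 was low as well, and none of its changes passed when every probe set was tested on its own (limma adjusted p = 0.163 and 0.105). The third, 1450232_at, stayed between 4.34 and 4.47 on all arrays.

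For *Cflar*, whose transcripts are spliced into long and short forms, probe set 1425686_at was higher by 1.21 log2 at 6 h and by 1.10 log2 in tolerant cells (limma adjusted p = 0.132 and 0.0595), close to the main probe set, 1424996_at. Probe set 1449317_at differed by 0.05 and -0.01 log2 and 1425687_at by 0.18 and 0.33 log2 in the same comparisons. Which transcripts each one reads was not examined here. For *Birc6*, probe set 1442959_at lay near the level minimum, between 3.95 and 5.21, and was higher by 0.82 log2 at 6 h (limma adjusted p = 0.136), while the main one, 1419562_at, differed by 0.41 log2.

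**Figure D3:**
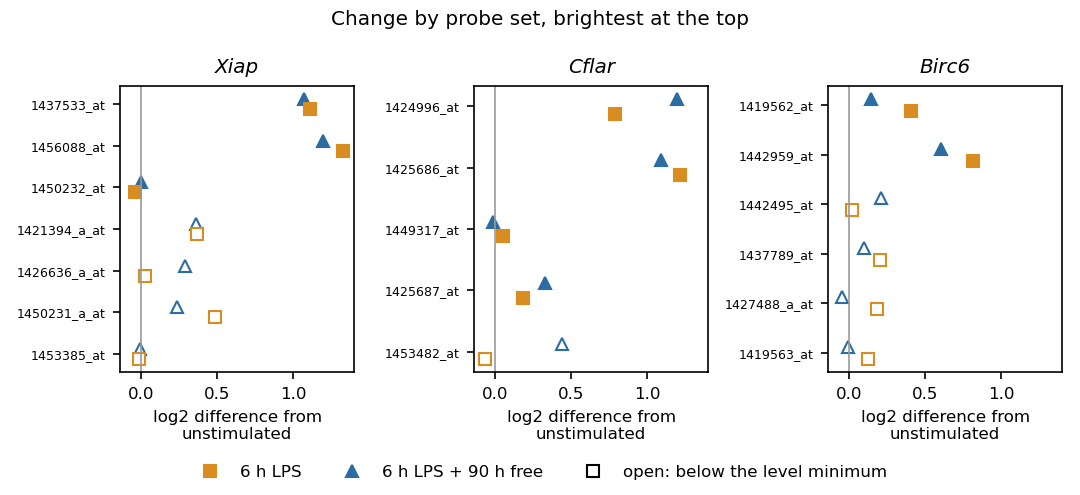
Log2 difference from unstimulated cells (horizontal axis) of every probe set of *Xiap*, *Cflar* and *Birc6*, ordered by mean level with the brightest at the top, at 6 h (squares) and in tolerant cells (triangles). Open symbols are probe sets below the level minimum. The 2 brightest *Xiap* probe sets lie above 1.0 in both conditions, and the others of that gene lie below 0.5.

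*Traf1*, an adaptor that NF-kappa-B induces in lymphoid cells, read 2.25 to 2.28 on one probe set and 2.12 to 2.17 on the other, over all 9 arrays. Both are at the low end of the scale in all 3 conditions, so no change could be measured.

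The remaining genes of the pathway came from 5 lists chosen by function, also with earlier results of these data known. The inhibitors of apoptosis proteins outside the 10 were mostly below the level minimum: of 6 listed, 5 had a probe set and only *Birc5* was tested. *Birc5* encodes survivin, which works in mitosis, and rose 1.54-fold in tolerant against unstimulated cells (limma adjusted p = 0.0342) and 1.72-fold against 6 h (adjusted p = 0.0233).

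Of 5 genes listed with the antagonists of these inhibitors, none was called at 6 h, while 2 fell and none rose in tolerant against unstimulated cells, where 12.2% of all tested genes were lower and 14.0% higher. *Septin4*, known for the ARTS isoform that binds XIAP, averaged 8.16 ± 0.29 in tolerant and 10.30 ± 0.21 in unstimulated cells, a 4.40-fold fall (limma adjusted p = 0.000252). Its other probe set changed by -2.17 log2. Which transcripts these probe sets read was not examined here, so the fall cannot be assigned to the ARTS isoform. *Diablo*, the mitochondrial SMAC protein that displaces caspases from XIAP, averaged 8.11 ± 0.13 in tolerant and 8.93 ± 0.05 in unstimulated cells, a 1.76-fold fall (limma adjusted p = 0.0191). *Septin4* was also lower than at 6 h, 2.93-fold, the single call of this list there without the block, where 6.02% of all tested genes were lower. *Arel1* of this list is a ligase that removes the antagonists, and it differed by -0.09 log2 from unstimulated cells. With the replicate block *Septin4* was also lower at 6 h, and *Htra2*, a mitochondrial protease, was higher in tolerant cells than in unstimulated cells (limma adjusted p = 0.0473 with the block) and than at 6 h (1.82-fold, adjusted p = 0.0718, or 0.00702 with the block). The block called 48.6% of all tested genes in tolerant against unstimulated cells (22.7% higher, 25.9% lower). It called 24.0% at 6 h against unstimulated cells and 31.7% in tolerant cells against 6 h. The median of the list in tolerant against unstimulated cells was -0.09 log2, against -0.07 over all tested genes.

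Of 15 death receptors and ligands, 7 were tested. The ligand genes on the array, *Tnf*, *Fasl*, *Tnfsf10*, *Lta* and *Ltb*, did not reach the level minimum. No gene of the list was called at 6 h, and *Fas* differed by 1.11 log2 there (limma adjusted p = 0.117, or 0.0319 with the replicate block). In tolerant against unstimulated cells 2 of 7 were called higher, where 14.0% of all tested genes were. *Tnfrsf12a*, the TWEAK receptor, rose 2.02-fold, with 11.60 ± 0.35 in tolerant and 10.58 ± 0.08 in unstimulated cells (limma adjusted p = 0.00619). *Tnfrsf1b*, the second TNF receptor, differed by 1.11 log2, with 2 of 3 arrays below log2 4 both in unstimulated cells and at 6 h. It reached the level minimum only through its tolerant arrays, so its call is no support for a rise. Its other probe set, under the minimum, differed by 0.04 log2. Both receptors were also called against 6 h, by 1.45 and 1.17 log2, where 7.10% of all tested genes were higher. The same limit holds there for *Tnfrsf1b*. *Tnfrsf1a*, the main death-inducing TNF receptor, averaged 9.22 in tolerant and 9.14 in unstimulated cells and did not pass.

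Of 26 partners of the receptor complexes and ubiquitin editors, 23 were tested. None was called at 6 h. With the replicate block 4 were higher and 2 lower there, where 24.0% of all tested genes were called. *Tnfaip3* was already higher at 6 h, by 1.88 log2 (limma adjusted p = 0.0625, or 0.0243 with the block). The block also called *Tab3* (1.12 log2, limma adjusted p = 0.0452), *Cyld* (0.70 log2, 0.0319) and *Tank* (0.59 log2, 0.0356) higher. The 2 lower were *Tradd* (-0.64 log2, 0.0333) and *Dedd2* (-0.63 log2, 0.0319). In tolerant against unstimulated cells 4 rose and 2 fell, 6 of 23, where 26.2% of all tested genes were called. *Tnfaip3*, the A20 ubiquitin editor, rose 5.07-fold (1.22 log2 on its other probe set), *Tab3*, a ubiquitin-binding subunit of the TAK1 kinase complex, 2.81-fold, the deubiquitinase *Cyld* 2.32-fold, and *Tank*, a TRAF-binding protein, 1.89-fold (limma adjusted p of 0.000592 to 0.0159). The 2 that fell, of which *Otulin* is named after its value was seen, were the linear-chain deubiquitinase *Otulin*, by 0.86 log2, and the stress kinase *Map3k5*, by 0.86 log2. In the same comparison the replicate block gave 5 higher and 3 lower of the 23, where it called 48.6% of all tested genes. It added *Rnf31*, which differed by 0.39 log2 (limma adjusted p = 0.463, or 0.0257 with the block). It also added the adaptor *Tradd*, which differed by -0.81 log2 (limma adjusted p = 0.186, or 0.00323 with the block). Against 6 h only *Map3k5* was called, 1.64-fold lower in tolerant cells, where 6.02% of all tested genes were lower. With the replicate block 5 of the 23 were higher and 3 lower against 6 h, where 31.7% of all tested genes were called. The higher ones were *Rnf31* (limma adjusted p with the block 0.00252), *Dedd2* (0.00428), *Pea15a* (0.00586), *Map3k14* (0.0152) and *Cyld* (0.0263). Beside *Map3k5*, the lower ones were *Map3k7* (0.00812) and *Traf6* (0.0235). *Traf6* reached the level minimum only through its 6 h arrays, so its call is no support for a fall.

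Of 9 caspases and apoptosome genes, 6 were tested. *Casp6*, an executioner caspase, was the single call, 2.40-fold lower in the tolerant state than unstimulated (7.05 ± 0.13 and 8.31 ± 0.05; limma adjusted p = 0.00380) and 1.73-fold lower than at 6 h (adjusted p = 0.0436). These are 1 of 6 in each comparison, where 26.2% and 13.1% of all tested genes were called. *Casp9*, *Casp2*, *Apaf1*, *Cycs* and *Bid* did not pass in any of the 3 comparisons. With the replicate block *Apaf1*, the apoptosome scaffold, was higher at 6 h (adjusted p = 0.0389), and 2 genes of this list were lower in tolerant cells in each comparison, *Casp6* and *Casp9* against unstimulated cells and *Casp6* and *Apaf1* against 6 h, where the block called 48.6% of all tested genes against unstimulated cells and 31.7% against 6 h.

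**Figure D4:**
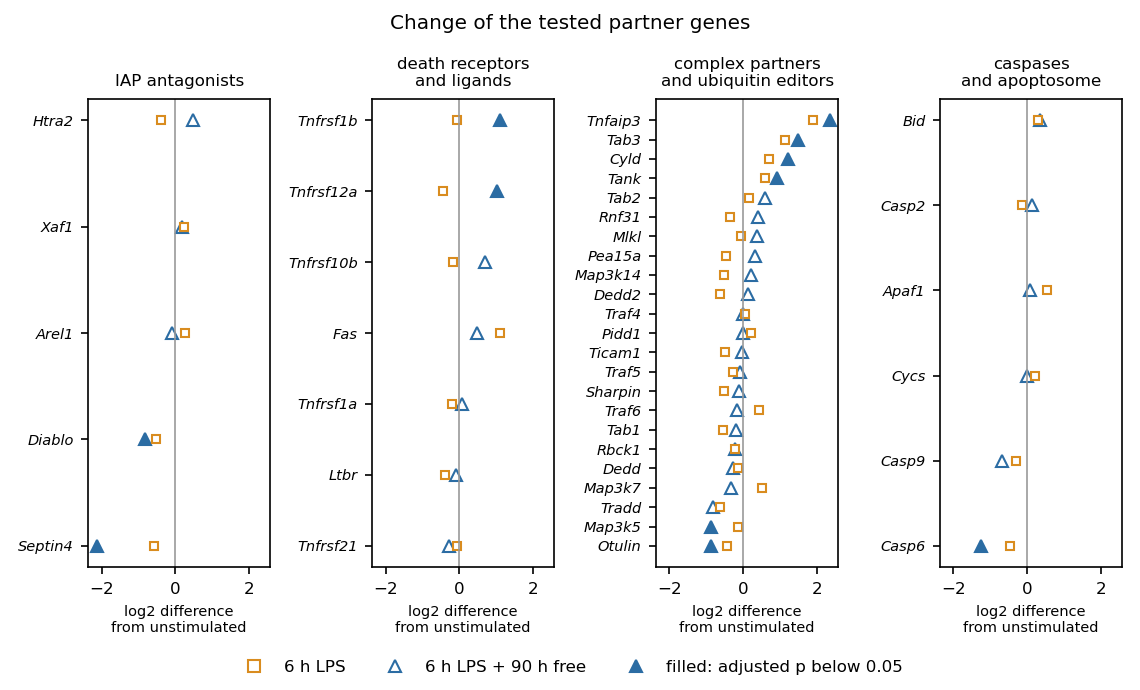
Log2 difference from unstimulated cells (horizontal axis) of the tested genes of 4 lists, at 6 h (squares) and in tolerant cells (triangles), ordered by the tolerant change. Filled symbols have an adjusted p below 0.05. *Tnfaip3* lies at the top of its list, *Septin4* and *Casp6* at the bottom of theirs, and no square is filled.

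Among all tested genes, those with profiles most like the 6 called members were found by the root mean square difference over 9 arrays of each log2 level from the gene's own mean. For *Birc2* these were *Ckap2* (0.17 log2), *Ttc37* (0.17) and *Gbp8* (0.17), and for *Birc3* they were *Il13ra1* (0.26), *Cdc7* (0.29) and *Erap1* (0.30). *Birc2* and *Birc3* differed from each other by 0.30 log2, the least of the 28 pairs among the 8 tested genes, and *Birc3* and *Fadd* differed most, by 1.18 log2. For *Xiap* the nearest were *Fam204a* (0.08), *Tnpo1* (0.09) and *Ddx3x* (0.10). For *Cflar* they were *Fgfr1op2*, *Bpnt2* and *Tbl1xr1* (0.15 to 0.16), for *Casp8* they were *Ghitm*, *S100a6* and *Vezf1* (0.13 to 0.14), and for *Fadd* they were *Rusf1*, *Mif4gd* and *Tmem201* (0.08 to 0.09).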

How the data were processed

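Transcript levels were measured on 9 Affymetrix arrays, 3 per condition. The deposited file holds linear intensity per probe set from GCRMA, as named in the submitters' processing notes without a version. GCRMA corrects background from probe sequence and normalizes between arrays, and values near its floor have no order.

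Values were turned into log2 with no pseudocount. Of 45101 probe sets, 34945 had 1 gene symbol in the platform annotation, and each gene was represented by the one with the highest mean, which gave 18193 genes. Genes reaching log2 4 on 3 or more arrays, 9431 in all, were tested in R 4.3.3 with limma 3.58.1 (lmFit with 1 mean per condition over all 9 arrays, eBayes, two-sided, Benjamini-Hochberg within each comparison, threshold 0.05). The fit was tested on simulated data. Intervals are unadjusted 95% intervals. Groups came from the sample titles.

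Same-numbered arrays of different conditions correlated in their deviations from the condition means at 0.157 to 0.844 over 9 pairs, above the 0.1 set for pairing. The block is therefore given where it changes the call of a member or of a gene in the pathway lists. The labels do not say what a number shares, and differently numbered replicates 2 and 3 correlated as well (0.214 to 0.731).

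The text names all 10 members with their probe sets, up to 4 called genes per list and comparison by size of change, and the 3 most alike genes per called member. Genes of the pathway lists whose call the block changes are named as well. Members and lists were chosen with earlier results of these data known. Alternatives covered the filter, the probe-set rule, quantile normalization, a floor, eBayes settings, separate fits, the block, replicates 2 and 3 only and each array left out. The fit of every probe set on its own was added after seeing the data.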

Additional observations from a re-analysis of the deposited data

How the results depend on the processing

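Counts of calls are given for the 8 members first and then for all tested genes. Each change in a count has a cause that was not tested. At 6 h against unstimulated cells the members' count was 0, against 5 with the replicate block and 0 to 3 with 1 array left out, the 3 without 6 h LPS replicate 3. The count over all genes was 6, against 2267 with the block, 37 without a filter, 14 with the mean of a gene's probe sets, and 5 to 696 with 1 array left out, the 696 also without 6 h LPS replicate 3. In tolerant against unstimulated cells the members' count was 6, and 4 to 6 with 1 array left out. Over all genes it was 2470, against 4586 with the block and 1400 to 2908 with 1 array left out. In tolerant cells against 6 h the members' count was 2, against 1 when only those 6 arrays were fitted and 0 to 2 with 1 array left out. Over all genes it was 1238, against 2985 with the block, 2126 from replicates 2 and 3 only, and 677 to 1282 with 1 array left out. The block changed the call of *Birc2*, *Birc3*, *Xiap*, *Cflar* and *Fadd* at 6 h and of *Birc3* in tolerant cells against 6 h, and no other member's call.

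Of 456 member changes under an alternative, 417 kept direction and side of the threshold, 17 lost the call, 9 gained it and 13 changed sign. None of the 13 was called. At 6 h, *Casp8* was at -0.0187 log2 from replicates 2 and 3 only, and *Traf2* ran from -0.30 to 0.0140 with 1 array left out. In tolerant against unstimulated cells, with 1 array left out, *Birc6* ran from -0.13 to 0.33 and *Traf2* from -0.32 to 0.0309. In tolerant cells against 6 h, *Xiap* was at 0.16 and *Traf2* at -0.0259 from replicates 2 and 3 only, *Traf2* was at -0.0118 with quantile normalization, and with 1 array left out *Xiap* ran from -0.42 to 0.19 and *Traf2* from -0.17 to 0.16.

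The number of arrays, 3 per condition from 1 cell line, limits the precision, and values under log2 4 carry no order.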
